A study of Homo sapiens with 40 samples.

Results

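Accessible chromatin in BT474R cells treated with EGF for 12 h was compared with that in BT474R cells treated with vehicle for 12 h. The comparison rests on 4 of the 40 peak lists of the series, 2 libraries labelled R12_EGF and 2 labelled R12_Con. Peaks on chromosomes 1 to 22 and X were merged wherever they overlapped by at least 1 bp, which gave 43265 regions. A region with a peak in both EGF lists and in neither vehicle list was called EGF-only, and the reverse pattern was called vehicle-only. Of the 43265 regions, 1780 were EGF-only (4.11%) and 674 were vehicle-only (1.56%), and 29833 had a peak in all 4 lists.

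BT474R is a single trastuzumab-resistant clone of BT474, an established line from a breast ductal carcinoma with overexpressed HER2, the receptor to which trastuzumab binds. The cells of both arms were serum starved and then placed in fresh starvation medium with EGF or with water as vehicle. The other libraries of the series are BT474R and BT474 cells untreated at 0 h or treated with EGF, HRG (heregulin, which binds HER3 and HER4) or vehicle for 1, 12 or 24 h, with 2 libraries per group. The study's methods say that treatments were done in duplicate, but neither they nor the labels say that the 2 libraries of a group came from separate cultures, so the p-values measure the spread between these libraries, which may be technical.

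EGF binds EGFR, which signals as a dimer with itself or with HER2, and the signal passes through the RAS-MAPK and PI3K-AKT cascades to the nucleus. MAPK signalling is known to raise the amount and activity of FOS and JUN proteins, whose dimers form the AP-1 transcription factor and bind TGACTCA or TGAGTCA. The AP-1 letters searched here were TGANTCA, a wider form with any base in the middle. ATAC-seq uses a transposase that inserts sequencing adapters into open chromatin, so that a peak marks an interval where the DNA was reached more often than elsewhere in the same library. In luminal breast cells many enhancers are held open by forkhead factors such as FOXA1, which bind TGTTTAC and related letters.

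The sequences that show the difference between the groups best are those around the summits of the strongest regions. The first 6 are the highest ranked EGF-only regions with an AP-1 match within 50 bases of the summit, and the match is in capitals. Each is 101 bases of the GRCh38 forward strand centred on the mean summit, and AP-1 letters read the same on both strands.

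CDYL intron, chr6:4854420-4854520: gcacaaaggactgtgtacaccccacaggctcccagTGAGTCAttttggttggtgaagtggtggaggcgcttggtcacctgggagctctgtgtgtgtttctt
No start within 100 kb, chr1:208108013-208108113: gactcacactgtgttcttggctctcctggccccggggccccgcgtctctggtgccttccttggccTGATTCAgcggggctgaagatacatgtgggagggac
IMMP2L intron, chr7:111499228-111499328: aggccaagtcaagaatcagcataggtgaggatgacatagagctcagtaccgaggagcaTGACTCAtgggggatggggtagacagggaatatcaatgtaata
VMP1 intron, chr17:59754724-59754824: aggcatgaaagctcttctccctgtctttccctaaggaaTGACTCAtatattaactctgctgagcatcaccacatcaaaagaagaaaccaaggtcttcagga
Near MRPS10, chr6:42224601-42224701: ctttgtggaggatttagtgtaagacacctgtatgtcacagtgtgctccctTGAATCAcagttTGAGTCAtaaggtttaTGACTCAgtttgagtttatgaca
No start within 100 kb, chr7:68155833-68155933: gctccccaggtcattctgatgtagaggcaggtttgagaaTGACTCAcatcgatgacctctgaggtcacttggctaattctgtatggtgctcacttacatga

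The next is one of the highest ranked EGF-only regions with no AP-1 match within 50 bases (it has one within 100), and the last 2 are the highest ranked vehicle-only regions, which held none either. They are shown as the counterpart of the set above.

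Near METTL21A, EGF-only, chr2:207633082-207633182: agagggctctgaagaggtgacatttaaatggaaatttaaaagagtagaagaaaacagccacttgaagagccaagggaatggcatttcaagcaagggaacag
HECTD4 intron, vehicle-only, chr12:112285606-112285706: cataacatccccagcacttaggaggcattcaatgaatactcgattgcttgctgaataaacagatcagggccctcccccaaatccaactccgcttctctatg
Near ADCY2, vehicle-only, chr5:7392023-7392123: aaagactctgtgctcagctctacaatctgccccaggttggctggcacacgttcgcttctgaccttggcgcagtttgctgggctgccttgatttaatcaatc

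The EGF lists held 38205 and 37476 peaks, and the vehicle lists held 32479 and 40331. Vehicle replicate 1 was the shortest of the 40 lists and vehicle replicate 2 the longest of these 4, so both EGF lists lay between the vehicle lists. The mean difference of 1435.5 peaks gave p = 1 in a two-sided exact permutation test over the 4 libraries, a design in which p cannot go below 0.333. Read depth could not be known from peak lists, and absence of a peak means only that none was called. A bulk assay also cannot tell fewer cells with an open region from less opening per cell. All 12 luminal epithelial markers checked, among them KRT8, KRT18, EPCAM and ERBB2, had a peak within 1 kb of their own start in all 4 lists. Such a peak was missing from every list for 2 of 5 basal markers (KRT14 and ACTA2), 5 of 6 fibroblast, 3 of 4 endothelial and 4 of 5 immune markers, PTPRC and PECAM1 among them. MYLK, COL1A1 and CDH5 had one in 4 lists, CD68 in 3 and TP63 in 2. KRT5, a basal keratin, had one in both EGF lists and in neither vehicle list.

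Presence of a peak separated the groups in both directions, with more regions on the EGF side. Of the 4097 regions found in exactly 2 lists, 2454 (59.9%) followed the groups, and 72.5% of these were EGF-only. The pattern of all but vehicle replicate 1 was the most frequent partial one, with 3484 regions, while only 47 regions were missing from vehicle replicate 2 alone. Covered bases were shared at 84.5% between the EGF lists, 77.3% between the vehicle lists and 75.3% to 79.5% between groups (Jaccard index). Vehicle replicate 1 shared more with its partner (77.3%) than with the EGF lists (75.3% and 76.9%), whereas vehicle replicate 2 shared more with the EGF lists (78.9% and 79.5%), and vehicle replicate 1 decided much of the count. Without it, 1828 regions were EGF-only and 3855 vehicle-only, and without vehicle replicate 2 the counts were 5284 and 784.

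**Figure D1:**
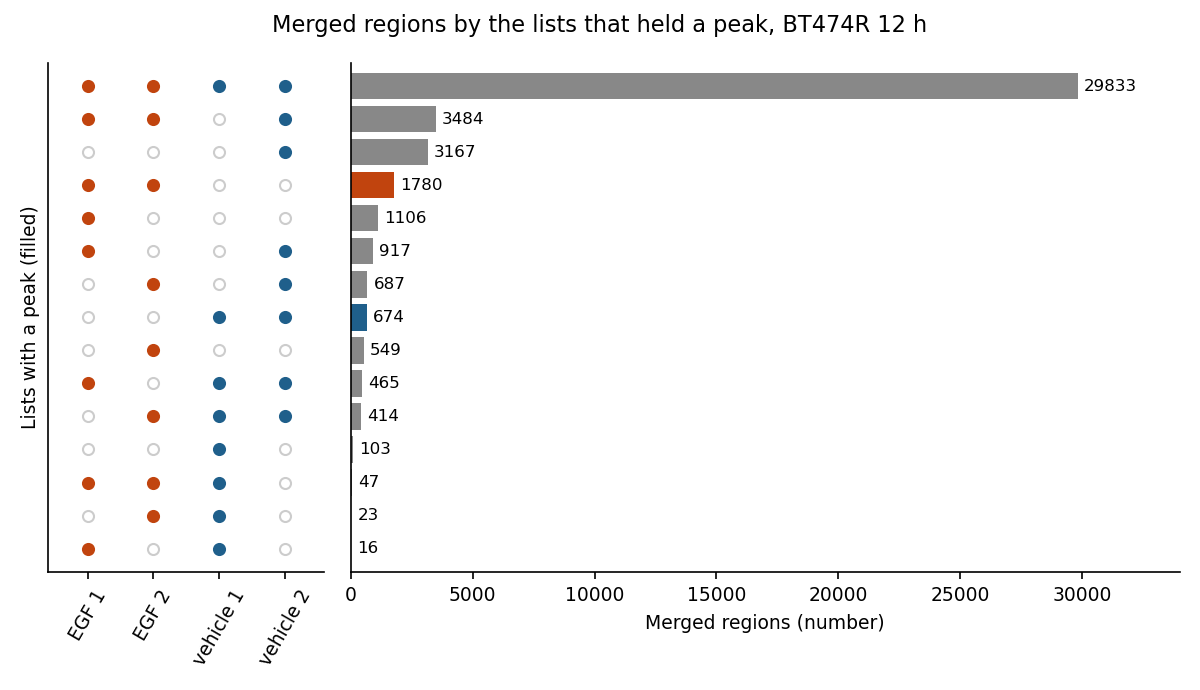
Number of merged regions (bars, horizontal axis) for each combination of lists that held a peak (filled circles, left). EGF-only regions (1780, red bar) outnumber vehicle-only regions (674, blue bar), and 3484 regions lack a peak in vehicle replicate 1 alone.

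Keeping the same number of top peaks in every list takes the list length out of the count. With the 32479 highest scoring peaks of each list there were 36847 merged regions, of which 1681 were EGF-only (4.56%) and 1239 vehicle-only (3.36%). The EGF-only share of the separated regions was then 57.6% in place of 72.5%. Of the 1780 EGF-only regions of the whole lists, 753 (42.3%) overlapped an EGF-only region of the equal lists, which is 44.8% of the latter. For vehicle-only regions the overlap was 378, which is 56.1% of the whole-list set and 30.5% of the equal-list set.

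Both sets were mostly weak, narrow and away from gene starts. The score of a peak (column 7, the area under the significance curve) was turned into its rank percentile within its own list, with 100 the highest. The median percentile of EGF-only peaks was 18.5 in EGF replicate 1 and 14.4 in replicate 2, and that of vehicle-only peaks was 8.75 and 21.2. Only 34 EGF-only and 4 vehicle-only regions ranked at or above the 50th percentile in both lists of their group. Median widths were 347 and 346 bp, against 635 bp for regions in all 4 lists. Promoters, taken as 1 kb either side of any annotated transcript start, held 14.9% of EGF-only and 20.9% of vehicle-only regions but 47.4% of those in all 4 lists. Introns held 48.8% and intergenic sequence 33.0% of EGF-only regions, and the median distance to a protein-coding start was 27019 bp. Over whole lists, the promoter share was 42.2% and 42.8% with EGF and 46.3% and 42.0% with vehicle. The groups overlapped (mean difference -1.66 percentage points, p = 1, exact permutation test, two-sided, n = 2 and 2).

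EGF-only regions carried AP-1 letters at their centres far more often than the other classes. TGANTCA lay within 100 bp of the summit in 960 of 1780 EGF-only regions (53.9%), in 5.79% of vehicle-only regions, in 12.4% of regions in all 4 lists and in 15.2% of all 43265. These shares were not split by the middle base. The letters also belong to sites of other leucine zipper families such as MAF and BACH. The cyclic AMP response letters TGACGTCA, which have an extra central base and cannot match TGANTCA, were found in 0.674% of EGF-only regions. Outside promoters the AP-1 shares were 55.5%, 6.75% and 18.1% for EGF-only, vehicle-only and all-list regions, and inside promoters 44.9%, 2.13% and 6.10%. The matches clustered at the summit: 11.2% of EGF-only regions had one in the 20 bp from 10 to 30 bp past it, against 0.787% in the 20 bp from 230 to 250 bp. In the 753 EGF-only regions whose peaks were both within the equal-length top, the share was 61.5%. In the 1681 EGF-only regions defined from the equal lists it was 52.2%, against 4.36% of the 1239 vehicle-only regions. The share did not hang on the weakest peaks, since it was 47.1% where the lower of the 2 percentiles was below 10, 65.0% where it was between 30 and 50, and 55.9% in the 34 regions at or above 50.

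Vehicle-only regions had the opposite composition. The forkhead letters TGTTTAC lay within 100 bp of the summit in 17.1% of vehicle-only regions, 6.52% of EGF-only regions, 7.13% of regions in all 4 lists and 7.75% of all merged regions. Outside promoters the shares were 20.3%, 6.67%, 10.9% and 10.7%. The grainyhead letters AACCNGTT were in 5.93% of vehicle-only and 2.47% of EGF-only regions, against 3.795% of all merged regions. SP/KLF letters (GGGGCGGGG), frequent at promoters, were in 0.787% of EGF-only regions and 2.82% of vehicle-only regions but in 6.94% of all merged regions. The median GC content within the window also differed, at 49.3% for EGF-only, 45.3% for vehicle-only and 57.2% for all-list regions, and its part in the motif shares was not tested. All 20 motifs were searched on both strands. ETS letters (CCGGAAGT) were in 0.506% of EGF-only and 2.10% of all merged regions, but outside promoters in 0.462% and 0.393%. GATA letters (AGATAAG) were in 3.71% against 1.93%. Outside promoters they were in 3.96% of EGF-only, 3.94% of vehicle-only and 2.72% of all merged regions. C/EBP letters (TTGCNNAA) were in 12.6% of EGF-only against 10.3% of all merged regions, a gap that was absent outside promoters (13.1% against 13.6%). RUNX letters (TGTGGTT) were in 5.96% against 4.19% and TEAD letters (ACATTCC) in 4.55% against 3.52%. Outside promoters these shares were 6.40% against 5.33% and 4.82% against 4.57%.

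The AP-1 share can also be read from each library without any presence rule. Among the 32479 top peaks of each list it was 16.0% and 15.5% with EGF and 11.6% and 11.9% with vehicle. The 2 groups did not overlap, and the difference was 4.02 percentage points with SDs of 0.340 and 0.202 (n = 2 and 2, exact permutation p = 0.333, the smallest this design allows). The untreated BT474R libraries at 0 h had 11.1% and 12.1%, so the vehicle libraries at 12 h were at the untreated level and the EGF libraries were above it. The HRG libraries at 12 h had 14.0% each and lay between EGF and vehicle.

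**Figure D2:**
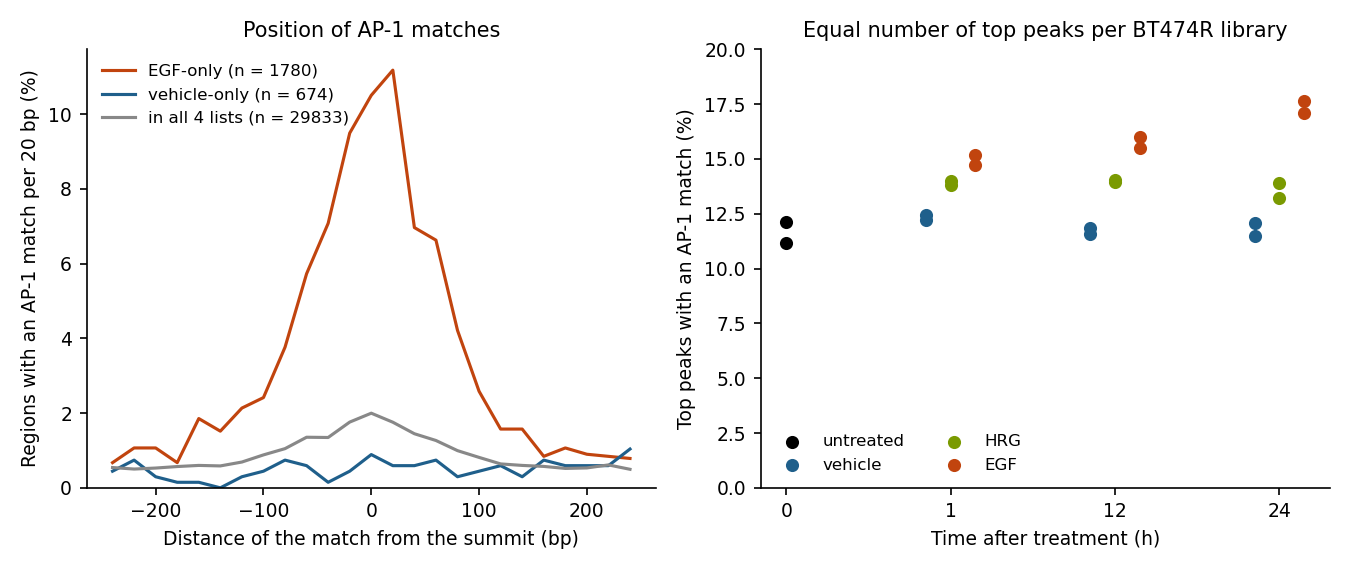
Left, percent of regions of each class with an AP-1 match in each 20 bp bin of distance from the summit; right, percent of the top 32479 peaks of each BT474R library (1 point a library) with an AP-1 match within 100 bp of the summit. EGF-only regions peak at 11.2% near the summit, and the EGF libraries at 12 h (16.0% and 15.5%) lie above the vehicle libraries (11.6% and 11.9%).

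The highest ranked EGF-only regions reached the upper part of their lists. Regions are named after the nearest protein-coding start, which need not be the gene they lie in. A region 6934 bp from the start of METTL21A, a protein methyltransferase (chr2:207632629-207633544), stood at the percentiles 72.1 and 74.5 of the EGF lists, with no peak in the vehicle lists. An intronic region of CDYL, which encodes a chromodomain corepressor (chr6:4853969-4854593), stood at 67.1 and 66.8. Of the other 5 described here, those of IMMP2L and VMP1 lay in introns of these genes. That of TEX2 (chr17:64326367-64327005) lay in an intron of PECAM1, that of RASSF8 (chr12:25924498-25925073) 33569 bp from its start, and that at chr1:208107906-208108672 in an intron of PLXNA2 with no protein-coding start within 100 kb. Their lower percentiles ran from 62.2 to 66.5. The regions of TEX2 and RASSF8 had no AP-1 match within 100 bp of the summit, whereas the rest of the 7 had one. VMP1, a membrane protein of autophagy, is also the host of the primary transcript of miR-21. Every one of these 7 regions had a peak in both BT474R vehicle libraries at 1 h and in both EGF libraries at 24 h. None of the 7 was therefore confined to EGF at other times. In the 24 h vehicle libraries METTL21A, CDYL and the chromosome 1 region had 2 peaks of 2, VMP1 and RASSF8 had 1, and TEX2 and IMMP2L had none.

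The vehicle-only regions with the highest ranks included one next to EGR1, an immediate early zinc finger factor. It lay 4777 bp from the EGR1 start at chr5:138469220-138470664, was 1445 bp wide, and stood at the percentiles 55.7 and 64.5 of the vehicle lists with no peak in either EGF list. The same region had a peak in both untreated, both 1 h vehicle, both 1 h EGF and both 24 h vehicle libraries of BT474R, and in none of the 24 h EGF or 12 h HRG libraries. In BT474 it had a peak in all 6 vehicle and all 6 EGF libraries. The first of the vehicle-only regions, in an intron of the ubiquitin ligase gene HECTD4 (chr12:112285500-112286459), stood at 63.8 and 74.2 and was also absent from both 24 h EGF libraries. A region 4077 bp from the start of ADCY2, an adenylyl cyclase (chr5:7391809-7392735), stood at 60.3 and 73.4. Regions near ARHGAP17, SDCCAG8 and MKRN1 followed, with lower percentiles from 46.7 to 53.3. None of the 6 had an AP-1 match within 100 bp.

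**Figure D3:**
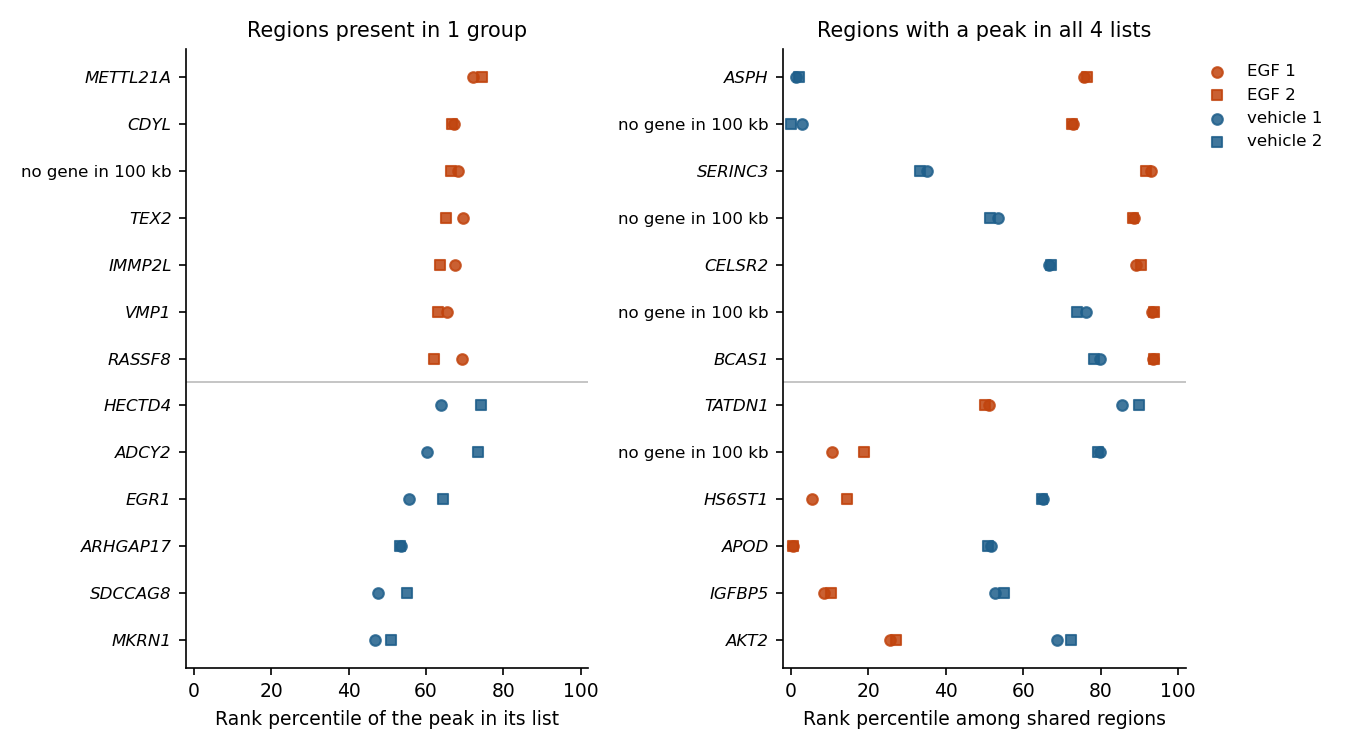
Rank percentile in each of the 4 libraries (points; red EGF, blue vehicle) for the highest ranked regions, named by the nearest protein-coding start. Left, EGF-only above the line and vehicle-only below, as percentiles of whole lists. Right, regions with a peak in all 4 lists, ranked higher (above the line) or lower with EGF. These were picked by the smallest limma adjusted p in the same 4 libraries, so the groups stand apart in them by choice.

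Regions with a peak in all 4 lists were compared by their ranks. The summed score of each region was ranked among the 29833 shared regions of each library and the ranks were compared by limma. Of these regions, 1428 (4.79%) rose in rank with EGF and 573 (1.92%) fell at an adjusted p below 0.05 (Benjamini-Hochberg). The median difference was 22.04 percentile points among the risers and -21.4 among the fallers, with median standard errors of 3.68 and 3.69 points. Ranks are relative, so a rise in some regions forces a fall in others, and the median over all shared regions was -0.662. The calls rested on both EGF libraries: without either one limma called 0 regions in each direction, with 4898 (without EGF replicate 1) or 5372 (without EGF replicate 2) at an unadjusted p below 0.05 against 7481 in the full fit. Without vehicle replicate 1 it called 1094 and 214 regions, and without vehicle replicate 2 it called 1881 and 625.

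The risers had the composition of the EGF-only regions. No region can be in both sets, but both sets were drawn from the same EGF and vehicle lists. Their likeness is therefore not an independent check. AP-1 letters lay near the summit in 51.7% of the 1428 risers, 4.54% of the 573 fallers and 12.4% of all shared regions. Forkhead letters were in 7.91%, 14.0% and 7.13%. Promoters held 19.6% of the risers and 29.5% of the fallers against 47.4% of all. When the shared regions outside promoters were split by rank difference into 10 bins set over all shared regions, the AP-1 share went from 4.77% in the lowest bin to 44.1% in the highest, and the forkhead share from 14.97% to 9.12%. The forkhead share was 9.62% in bin 5 and stayed between 9.12% and 10.4% from there on, so its change lay in the lower bins, while the AP-1 share outside promoters was higher in each bin than in the one below it except in bin 3 (6.55% in bin 2 and 5.94% in bin 3).

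**Figure D4:**
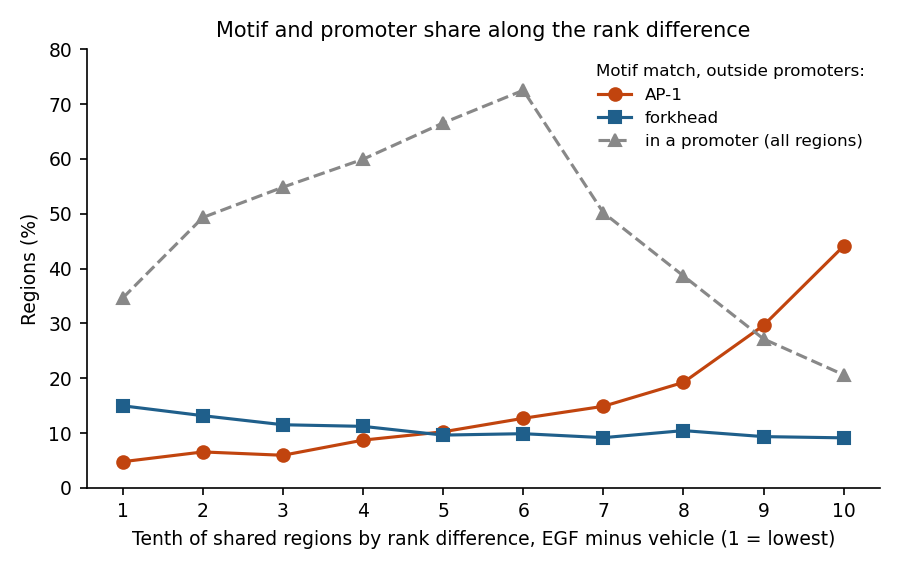
Percent of shared regions outside promoters with an AP-1 (circles) or forkhead (squares) match within 100 bp of the summit, and percent of shared regions that lie in a promoter (triangles), in 10 bins of the rank difference, EGF minus vehicle. The AP-1 share climbs from 4.77% to 44.1% while the forkhead share goes from 14.97% to 9.12%.

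The riser with the largest difference among the 7 described here lay 75523 bp from the start of ASPH, an aspartyl hydroxylase of the endoplasmic reticulum, in an intron of the noncoding gene LINC02842 (chr8:61789413-61790424). Its rank among shared regions was 75.8 and 76.5 with EGF and 1.30 and 1.98 with vehicle, a difference of 74.5 points (SE 3.72, limma adjusted p = 0.00888). A region 8969 bp from SERINC3, a serine incorporator, stood at 93.0 and 91.8 against 35.2 and 33.4. A region 9193 bp from CELSR2, an atypical cadherin, stood at 89.3 and 90.5 against 66.7 and 67.3. Near BCAS1, a gene amplified in some breast cancers, the ranks were 93.6 and 93.9 against 79.8 and 78.4. The other 3 lay beyond 100 kb of a protein-coding start, at chr18:3602835-3603942, chr3:189937336-189938241 and chr15:71294951-71296682, and differed by 71.2, 36.05 and 18.3 points. AP-1 letters were near the summit in 6 of the 7, the exception being the region near ASPH.

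None of the 6 named fallers had AP-1 letters. A region 20789 bp from APOD, which encodes the lipocalin apolipoprotein D, stood at 0.526 and 0.442 with EGF and at 51.6 and 50.9 with vehicle (chr3:195604522-195605384; difference -50.7, SE 3.62, limma adjusted p = 0.0114). This region had no peak in any of the 12 EGF and vehicle libraries of BT474. A region 44125 bp from IGFBP5, an insulin-like growth factor binding protein, stood at 8.46 and 10.4 against 52.6 and 55.1. An intronic region of the kinase gene AKT2 stood at 25.5 and 27.1 against 68.8 and 72.3. The others lay near HS6ST1 (-55.0 points) and TATDN1 (-37.1 points) and at chr1:243462239-243463314 (-64.9 points).

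Genes were then read by function from 13 lists of 434 genes. A region was assigned to the nearest protein-coding start within 100 kb. Of 19618 protein-coding genes, 1222 (6.23%) had an EGF-only region, 492 (2.51%) a vehicle-only region, 961 (4.9%) a riser and 423 (2.16%) a faller. A gene with more regions has more chances to have one of these, so the share of the assigned regions is given as well. Over all genes it was 3.66% for EGF-only and 1.38% for vehicle-only. Of the 26562 assigned shared regions 1188 rose and 456 fell, and their median rank difference was -0.717 points.

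The ERBB receptors, their ligands and adaptors stand at the entry of the pathway. Of 34 genes, 4 had an EGF-only region, 2 a vehicle-only region, 2 a riser and 1 a faller. EGF-only regions were 3.74% and vehicle-only regions 1.87% of their 107 assigned regions, near the shares over all genes. EGFR itself had all of its changes on the EGF side. Its EGF-only region lay 22847 bp from a start (chr7:54996075-54996302) and was weak, at the percentiles 5.32 and 15.6. Of its shared regions 3 rose, the strongest in an intron at chr7:55132650-55133428, which stood at 83.2 and 82.5 with EGF and 39.2 and 48.0 with vehicle (difference 39.2, SE 3.69, limma adjusted p = 0.012). All 4 of these EGFR regions had AP-1 letters near the summit. AREG, the EGFR ligand amphiregulin, the EGF gene and PIK3CB, a PI3K catalytic subunit, had EGF-only regions with percentiles between 3.56 and 18.2. The EGF-only regions of EGFR and the EGF gene had a peak in both BT474R vehicle libraries at 1 h and at 24 h. Both also had one in all 6 BT474 vehicle libraries. Those of AREG and PIK3CB had a peak in 1 of the 2 BT474R vehicle libraries at 24 h. ADAM17, the protease that sheds EGFR ligands, and NRG2, a neuregulin, had vehicle-only regions that were also absent from both 24 h EGF libraries.

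Among 25 feedback inhibitors of RAS-MAPK signalling, 7 had an EGF-only region and none a vehicle-only region, while 4 had a riser and 3 a faller. EGF-only regions made up 4.61% of their 152 assigned regions, near the 3.66% of all genes. The Sprouty gene SPRY1, an inhibitor of RAS activation, had one 56412 bp away at chr4:123340247-123340589, at the percentiles 42.4 and 24.9, that had no peak in the untreated or other vehicle libraries of BT474R. The other named ones were near ETV5 (34.5 and 22.8), an ETS factor induced by MAPK signalling, SPRED1 (23.6 and 22.3) and PHLDA1 (24.3 and 20.1). DUSP6, the ERK phosphatase, was picked out after its values were seen: 5 of its shared regions rose. The one with the largest difference, 31236 bp from its start at chr12:89383216-89383934, stood at 67.6 and 65.0 with EGF and 3.78 and 21.6 with vehicle (difference 53.7, SE 6.52, limma adjusted p = 0.019). The 3 fallers were near DUSP4 (-30.6 points) and LRIG1 (-20.3 points), which also had an EGF-only region each, and at the promoter of DUSP1. The DUSP1 region fell from 79.8 and 82.6 with vehicle to 69.0 and 70.8 with EGF (limma adjusted p = 0.0266). DUSP1 is a phosphatase of JNK and p38.

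The immediate early and AP-1 genes had few EGF-only or vehicle-only regions. Of 29 genes, 27 had a promoter peak in all 4 lists, 2 had an EGF-only region and 4 a vehicle-only region. EGF-only regions were 1.41% and vehicle-only regions 2.82% of their 142 assigned regions, against 3.66% and 1.38% over all genes. Counts of 2 and 4 are too small to set the list apart. The EGF-only regions were near IER3 (44.8 and 36.2), an apoptosis regulator, and MAFK (5.16 and 9.31), and both had AP-1 letters. Beside the EGR1 region, vehicle-only regions lay 4034 bp from JUN (43.4 and 47.6), 236 bp from a start of the nuclear receptor NR4A1 (14.5 and 9.56) and 98363 bp from KLF4 (8.38 and 13.5). Unlike the EGR1 region, those of JUN and NR4A1 had a peak in both BT474R EGF libraries at 24 h, and that of KLF4 in 1 of the 2. Risers were assigned to 7 genes and fallers to 5, among 105 shared regions of the list. The 9 riser regions included 3 at IER3, of which the nearest lay in its promoter (82.0 and 81.2 with EGF against 71.8 and 64.3 with vehicle), and others near BATF, ATF3 and EGR3. The 6 faller regions included promoters of IER2, JUND and MAFF and a region 2151 bp from the JUNB start.

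Adhesion, migration and matrix genes had the largest number of risers of the 13 lists. Of 49 genes, 16 had a riser and 1 a faller, 11 had an EGF-only region and 4 a vehicle-only region. EGF-only regions were 6.67% and vehicle-only regions 2.05% of their 195 assigned regions. Of their 134 shared regions 27 rose and 1 fell, against 1188 and 456 of 26562 over all genes. The median rank difference was 1.71 points, against -0.717 over all genes. MMP1, an interstitial collagenase, had an EGF-only peak on its promoter, 57 bp from the start, at the percentiles 48.2 and 49.3 with AP-1 letters. PLAU, the urokinase gene, had one 234 bp from its start at 33.1 and 23.3, also with AP-1 letters. These 2 and ZEB1 were the genes of the list with a promoter peak in both EGF lists and in neither vehicle list. ITGB5, an integrin subunit, had an EGF-only region at one of its starts (55.7 and 47.4) and a weak vehicle-only region in an intron (1.45 and 13.5). ITGB6 had 2 EGF-only regions and 5 risers, of which that at chr2:160222670-160223363 stood at 71.8 and 74.7 with EGF and 35.5 and 42.2 with vehicle. The 1 faller was the promoter region of ITGA2, the alpha-2 integrin, at 11.6 and 11.1 with EGF and 38.4 and 40.5 with vehicle. The vehicle-only regions of ITGB1, SNAI2 and ITGA5 were weak, each with a lower percentile under 3.

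Luminal lineage and hormone response genes had changes on both sides. Of 38 genes, 35 had a promoter peak in all 4 lists, 8 had an EGF-only and 4 a vehicle-only region, and 6 each had a riser and a faller. EGF-only regions were 3.03% and vehicle-only regions 1.52% of their 264 assigned regions, near the shares over all genes. KRT7, a simple epithelial keratin, had an EGF-only region at 50.4 and 49.7, and KRT19 one at 40.8 and 38.1. GRHL3, a grainyhead factor, followed at 39.6 and 22.5, and EHF, an epithelial ETS factor, at 23.3 and 21.2. Vehicle-only regions lay near KRT8 (18.4 and 57.3), the progesterone receptor gene PGR (9.46 and 14.0), LMX1B and TBX3. Risers lay near BCAS1, CLDN4, TFAP2C, ELF3, KRT8 and RARA, and fallers near GREB1, TFAP2C, PGR, LMX1B, FOXA1 and XBP1. The following 3 of the fallers were chosen after their values were seen. The promoter region of GREB1, a target of the estrogen receptor, stood at 33.3 and 27.96 with EGF and 57.4 and 60.8 with vehicle (difference -28.5, SE 4.12, limma adjusted p = 0.0249). PGR had a faller in its promoter (-5.65 points) and FOXA1 had 2 fallers (-33.8 and -2.39 points) beside a weak EGF-only region with AP-1 letters (7.23 and 10.2).

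Metabolic lists had more EGF-only than vehicle-only regions, as did all genes together (3.66% and 1.38% of assigned regions). Of 36 hypoxia and glycolysis genes, 8 had an EGF-only region and none a vehicle-only region, and EGF-only regions were 5.85% of the 171 assigned. CA9, carbonic anhydrase IX, had a peak 400 bp from its start at 54.0 and 47.7 in the EGF lists and none in the vehicle lists. It was present in both 24 h EGF and both 24 h vehicle libraries and in none of the BT474 EGF and vehicle libraries. NDRG1 (39.4 and 39.1) and the prolyl hydroxylase gene EGLN3 (46.8 and 29.1) had EGF-only regions with AP-1 letters. Of 30 lipid and sterol synthesis genes, 8 had an EGF-only and 2 a vehicle-only region, or 5.52% and 1.38% of 145 assigned regions. Those on the EGF side included ACACA (45.9 and 40.8) and FASN (13.7 and 26.7), the enzymes of fatty acid synthesis, the phosphatidate phosphatase gene LPIN1 (37.9 and 41.7), and HMGCS1 (44.9 and 20.7) of sterol synthesis. ACACA also had a vehicle-only region (3.57 and 11.6), 1 riser (21.5 points) and 2 fallers (-27.9 and -7.84 points). HMGCS1 also had a faller in an intron, at 9.39 and 11.7 with EGF and 51.1 and 44.3 with vehicle.

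Among signalling lists, TGF-beta and BMP pathway genes had 12 EGF-only regions and 1 vehicle-only region among 166 (7.23% and 0.602%), in 8 and 1 of 33 genes. SMAD3 (43.9 and 41.2), the SMAD corepressor SKIL (32.4 and 35.4), ID3 (27.9 and 36.1) and ID2 (30.3 and 24.9) were the highest, and the vehicle-only region was near SKI (8.75 and 18.0). Receptor kinases outside the ERBB family had an EGF-only region in 6 and a vehicle-only region in 2 of 29 genes, with EPHA4 (39.0 and 41.1), IGF1R (23.9 and 32.2), IRS2 (33.0 and 18.6) and EPHA2 (20.4 and 17.5) on the EGF side and TYRO3 and MERTK on the other. EGF-only regions were 6.02% of their 133 assigned regions. Of 50 interferon response genes, 5 had an EGF-only region (5.88% of 85 assigned regions) and none a vehicle-only region, and 4 had a riser (ISG20, IFNGR2, USP18 and MX2) and none a faller. Their 64 shared regions had a median rank difference of -1.67 points, against -0.717 over all genes. The interferon factor gene IRF1 had an EGF-only region 457 bp from its start, close to the end of the lists (2.23 and 5.44). That near IRF2 was higher (30.7 and 31.5). The other named ones, near GBP1 and TNFSF10, had lower percentiles of 5.20 and 4.59. NF-kB genes had none of either kind in 31 genes and 1 riser, at the promoter of the chemokine gene CXCL8 (21.2 points). Of 24 G1 cell cycle genes only CCNE2 had an EGF-only region (1.91 and 15.3; 2.44% of 41 assigned regions), and of 26 hippo genes AMOTL1 had an EGF-only (22.1 and 12.5) and AJUBA a vehicle-only region (5.14 and 24.1), each 0.826% of 121 assigned regions.

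MICAL2, an actin oxidising enzyme, was among the genes with the most EGF-only regions, with 4 of its 16 assigned regions, and all 4 had AP-1 letters. Of the 16 genes with at least 3, those named next by the rank of their strongest region were MRPS10, CYP24A1, PRDM16, FGD5, ANO1 and DDX47. Of the 1222 genes with an EGF-only region, 133 had more than 1.

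The regions were then followed into libraries that had not defined them, where the length of the list matters. In whole lists of BT474R, 86.2% and 81.2% of EGF-only regions had a peak in the vehicle libraries at 1 h, whose lists held 56494 and 54256 peaks. At 24 h they had a peak in 28.7% and 55.8% of cases with vehicle and in 98.9% and 98.7% with EGF. Untreated libraries had 67.7% and 41.2%. With equal numbers of top peaks in every library, the shares of the 1681 EGF-only regions were lower. The replicates were also closer together, except with EGF at 24 h. They were 19.4% and 20.7% untreated, 31.8% and 31.6% with vehicle at 1 h, 56.3% and 58.9% with EGF at 1 h, 18.2% and 26.1% with vehicle at 24 h and 82.9% and 86.1% with EGF at 24 h. So most EGF-only regions of the whole lists had been called at 1 h without EGF (78.3% in both vehicle libraries). Of the 1681 EGF-only regions of the equal lists, a set that overlaps the first only in part, 24.6% had. A group of 152 EGF-only regions (8.54%) had no peak in any of the 6 untreated and other vehicle libraries of BT474R, and 74.3% of them had AP-1 letters, against 52.0% of the other 1628.

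Vehicle-only regions took the reverse course. In whole lists 99.4% and 93.6% of them had a peak in the untreated libraries, 94.1% and 96.7% with vehicle at 24 h and 71.5% and 65.3% with EGF at 24 h. At equal numbers the 1239 vehicle-only regions had a peak in 76.2% and 76.1% of cases untreated, 72.1% and 66.7% with vehicle at 24 h and 25.4% and 21.95% with EGF at 24 h. At 1 h the EGF libraries (52.9% and 51.3%) were already below the vehicle libraries (68.2% and 70.9%).

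**Figure D5:**
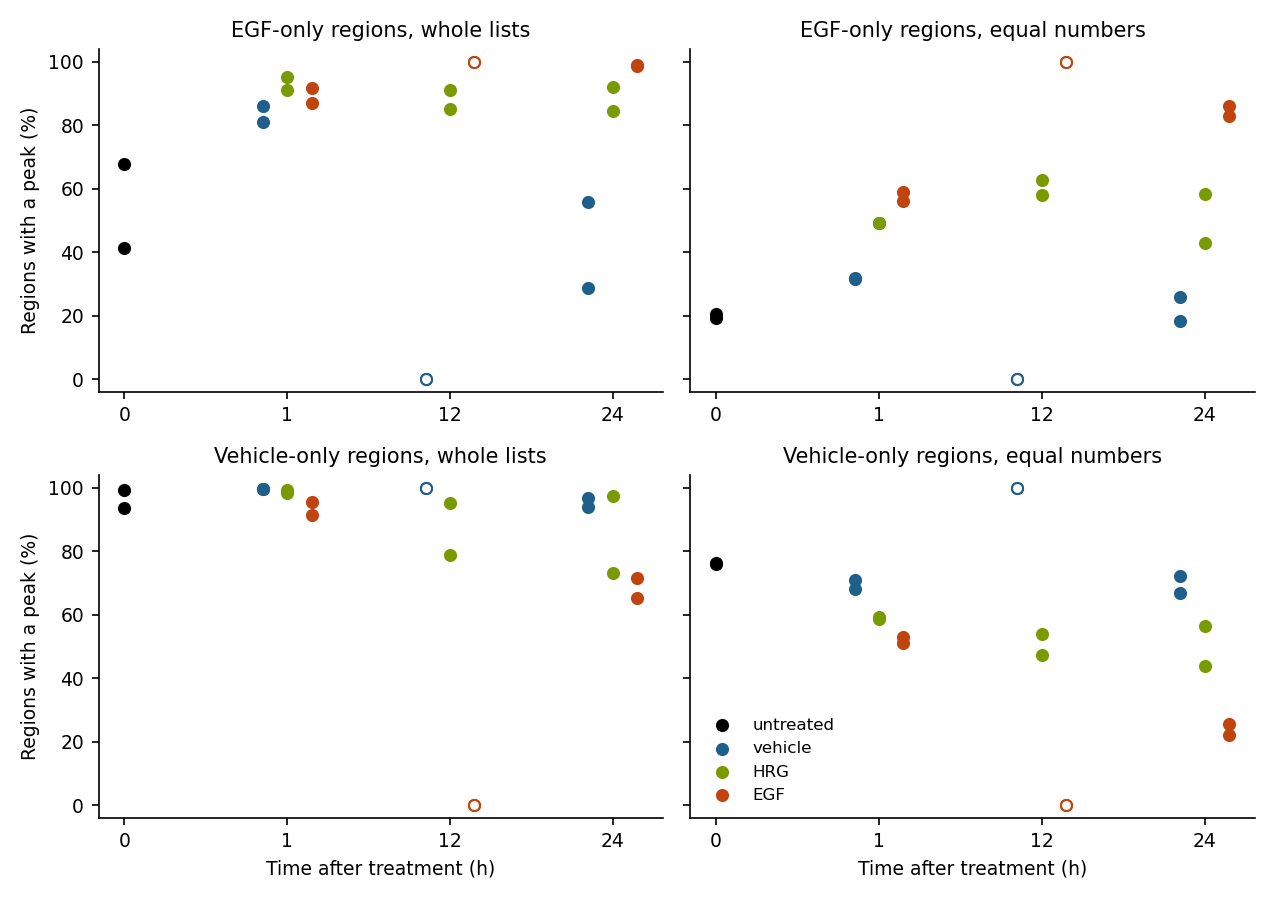
Percent of EGF-only (top) and vehicle-only (bottom) regions with a peak in each BT474R library (1 point a library), with whole lists (left) and with the 32479 top peaks per list (right). Open circles are the 12 h libraries that defined the regions, at 0% or 100% by construction; at 24 h the EGF libraries hold 82.9% and 86.1% of EGF-only regions on the right panel and the vehicle libraries 18.2% and 26.1%.

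To test this, the EGF-only share minus the vehicle-only share was taken in each library, on whole lists. A longer list counts toward both terms, but not equally. With vehicle at 24 h in BT474R the value was -65.4 with 41833 peaks and -40.9 with 45799. EGF lists were longer than vehicle lists at 24 h in BT474R and at 12 and 24 h in BT474, and shorter at 1 h in BT474R. The part of list length in the differences below was not tested. Over the 8 BT474R libraries at 1 and 24 h the mean EGF minus vehicle difference was 47.7 percentage points (11.9 at 1 h and 83.6 at 24 h). EGF libraries were higher in every case, and the two-sided exact permutation test within time points gave p = 0.0556, the smallest its 36 arrangements allow (adjusted over 2 tests, 0.0556). Over the 12 BT474 libraries at 1, 12 and 24 h the difference was 22.96 points, again with every EGF library above every vehicle library of its time (17.3, 22.7 and 28.9 points; p = 0.00926, adjusted 0.0185, exact permutation, 216 arrangements). In the parental line the EGF-only regions were thus also more often open with EGF, at 60.9% and 67.5% at 12 h against 40.4% and 41.0% with vehicle. At equal numbers the shares were 35.1% and 38.8% with EGF against 22.4% and 21.8% with vehicle. Vehicle-only regions overlapped between the arms in whole lists at 12 h, at 69.1% and 75.8% with EGF and 71.2% and 72.1% with vehicle. At equal numbers they did not, at 46.8% and 45.3% with EGF against 51.5% and 51.2% with vehicle. Of the 1780 EGF-only regions, 546 (30.7%) had no peak in any of the 4 BT474 libraries of EGF and vehicle at 12 h, and 652 (36.6%) had one in all 4.

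The presence of AP-1 letters went with where the EGF-only regions were open. At 24 h with vehicle in BT474R, those with the letters had a peak in 23.3% and 50.9% of cases and those without in 35.0% and 61.5%. In BT474 at 12 h the shares with EGF were 66.5% and 74.3% with the letters against 54.4% and 59.5% without, while with vehicle they were 40.2% and 40.6% against 40.6% and 41.5%.

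The risers and fallers kept their direction at 24 h as mean ranks among the 29833 shared regions, a description with no test. The 1428 risers had mean ranks of 62.6 and 65.1 with EGF at 24 h against 42.5 and 45.7 with vehicle, and 56.3 and 56.8 against 50.6 and 48.3 at 1 h. The 573 fallers had 39.1 and 38.7 against 55.8 and 53.9 at 24 h and 52.8 and 52.4 against 57.7 and 56.5 at 1 h. Untreated libraries had 42.6 and 47.4 for the risers, near the vehicle values at 24 h.

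HRG at 12 h was compared with the same vehicle libraries, so its values are only set beside those of EGF. The HRG lists held a peak at 91.1% and 85.1% of EGF-only and at 95.3% and 78.9% of vehicle-only regions in whole lists. At equal numbers they held 58.2% and 62.8% of EGF-only and 54.0% and 47.4% of vehicle-only regions. Mean ranks of the risers were 56.7 and 58.3 with HRG, 64.9 and 64.04 with EGF and 42.1 and 43.3 with vehicle. At 93 EGF-only regions (5.22%) neither HRG library had a peak.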

How the data were processed

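ATAC-seq peak lists of 4 BT474R libraries were analysed, with the other 36 lists used as libraries that did not define the regions. Per the study's methods and processing notes, the authors trimmed reads with Trim Galore 0.6.6, mapped them to GRCh38.p13 with BBMap and called peaks per library with Genrich after removing mitochondrial and blacklisted reads. The sources used here do not state the Genrich options, including any shift to cut sites. Column 7 as deposited by the authors is a peak score, the area under the significance curve, and no list held a score below 200. It depends on library depth and was used only as a rank within a list. The deposited -log10 p and q columns were not used. Peaks on other sequences (25 to 27 a list) were left out.

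Regions with a peak in all 4 lists were ranked by summed score and compared with limma 3.58.1 (R 4.3.3, trend, Benjamini-Hochberg), single values by exact permutation. The fit was tested on simulated data. Genes came from GENCODE release 44. Regions, shares, permutation tests and figures were computed in scipy 1.17.1, pandas 2.3.3, numpy 2.4.6 and matplotlib 3.10.9 under Python 3.11.15. Named regions were the 8 EGF-only and 6 vehicle-only regions with the highest lower percentile, and the 8 risers and 6 fallers with the smallest adjusted p. Named genes were at most 4 per list and direction by lower percentile, and the 8 genes with most EGF-only regions. Some regions and genes that these rules name are not reported here. Members, lists and rules were chosen with earlier results of these data known. Alternatives were a score of at least 400, equal numbers of top peaks, peaks trimmed to 400 bp, 50% coverage, other windows, scalings and a replicate block, and leaving out each library.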

Additional observations from a re-analysis of the deposited data

How the results depend on the processing

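Of 78 alternative values, 58 kept their direction and their side of the threshold, or lay within 1.5 times the count reported. A score of at least 400 gave 1090 EGF-only and 345 vehicle-only regions, 593 risers and 181 fallers. Equal numbers of top peaks gave 1239 vehicle-only regions. Quantile-normalised log2 scores gave 2176 risers and 1113 fallers, and the highest peak in place of the summed score gave 357 fallers. With 1 library left out, EGF-only regions ranged from 1828 to 5284, vehicle-only regions from 784 to 3855, risers from 0 (without either EGF replicate) to 1881 and fallers from 0 to 625. Without vehicle replicate 1 the difference in peaks per list reversed to -2490.5 (range to 5361.5) and that in promoter share to 0.452 percentage points (lowest -3.77). The AP-1 difference ranged from 3.78 to 4.26 points and the differences in other BT474R and BT474 libraries from 41.6 to 53.8 and from 22.1 to 23.9. With a replicate block limma called 1362 risers and 516 fallers. Same-numbered libraries did not deviate together in rank (r = -0.00380 over 29833 regions). This gave no sign that the numbers pair the samples, but cannot exclude that they were handled together. Peaks trimmed to 400 bp gave 1888 and 808 regions. The cause of these changes was not tested beyond the fewer libraries or peaks each alternative holds. Depth was unknown, and 2 libraries a group limit every value.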
